A study of Mus musculus with 4 samples.

Results

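The skeletal myosin heavy chain cluster is the stretch of mouse chromosome 11 from 66880000 to 67190000 (mm9) that holds 6 genes in the order Myh3, Myh2, Myh1, Myh4, Myh8 and Myh13. It was chosen by these coordinates, together with 500 kb on either side, and every macroH2A island with at least 1 bp in the 310 kb interval was taken as belonging to it. That gave 7 of the 30016 islands of the day 0 library and 3 of the 29473 islands of the day 5 library. The libraries are chromatin immunoprecipitations sequenced (ChIP-seq) from C2C12, a mouse muscle precursor line that exits the cell cycle and fuses into multinucleated myotubes in low serum. One group is myoblasts at day 0 of differentiation medium and the other is myotubes at day 5 of that medium, which contained horse serum and was applied to confluent cells on Matrigel. Both are the same line, and the labels name no genetic change or drug in either. Each group holds 1 library, so no difference below has a replicate check or a p-value. The labels do not say how many cultures went into a library or how many cells had fused. The 2 input samples of the series were not analysed here.

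Myosin heavy chains are the motor proteins of the thick filament, and muscle fibres are typed by which of these genes they use. Myh3 encodes the embryonic and Myh8 the perinatal chain, which are made while fibres form and regenerate. Myh2, Myh1 and Myh4 encode the fast chains of adult type IIa, IIx and IIb fibres, and Myh13 encodes the chain of extraocular muscle. MacroH2A, a variant of histone H2A with a bulky macrodomain at its tail end, replaces the common histone over broad chromatin domains and is best known from the inactive X chromosome. The labels name the antibody as one to macroH2A without giving an isoform.

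All 6 members matched the RefSeq promoter table (GRCm38.p6, from 250 bases before to 50 bases after the gene's start, all on the plus strand). The longest run of letters found in at least 4 of the 6 promoters was 14 bases long. It occurred in Myh2, Myh1, Myh4 and Myh8, which stand next to each other, and not in the outermost genes Myh3 and Myh13. Its first base lay 125 bases before the start of Myh2, 160 before that of Myh1, 158 before that of Myh4 and 54 before that of Myh8. The stretches below show the run in capitals with 30 bases on either side, and are from chr11:67170872-67170945, chr11:67199912-67199985, chr11:67237624-67237697 and chr11:67277040-67277113.
Myh2: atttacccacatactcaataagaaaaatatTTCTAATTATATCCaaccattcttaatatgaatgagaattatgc
Myh1: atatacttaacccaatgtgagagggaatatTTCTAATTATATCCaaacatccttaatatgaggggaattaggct
Myh4: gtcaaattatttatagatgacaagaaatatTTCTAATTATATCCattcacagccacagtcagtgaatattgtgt
Myh8: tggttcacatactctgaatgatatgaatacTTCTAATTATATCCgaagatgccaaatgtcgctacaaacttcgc
Outside the run, without gaps, the 6 pairs of these stretches were identical at 20 to 30 of 60 bases. The run was found on either strand in 4 of 32851 promoters of the table (0.0122%), which were these 4. It was picked for being shared, so this share describes the choice, and stretches lined up on it are alike in part for that reason.

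The promoters of the outermost genes are printed whole because they lack the run and mark the ends of the cluster. That of Myh3 is chr11:67078050-67078349 and that of Myh13 is chr11:67326853-67327152, both GRCm38.p6, positions that cannot be set against the mm9 islands.
Myh3: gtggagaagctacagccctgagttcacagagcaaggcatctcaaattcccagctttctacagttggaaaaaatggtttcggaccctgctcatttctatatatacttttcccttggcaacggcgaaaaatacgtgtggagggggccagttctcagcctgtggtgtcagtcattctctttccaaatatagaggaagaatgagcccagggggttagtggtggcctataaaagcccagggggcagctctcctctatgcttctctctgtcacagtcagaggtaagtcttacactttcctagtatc
Myh13: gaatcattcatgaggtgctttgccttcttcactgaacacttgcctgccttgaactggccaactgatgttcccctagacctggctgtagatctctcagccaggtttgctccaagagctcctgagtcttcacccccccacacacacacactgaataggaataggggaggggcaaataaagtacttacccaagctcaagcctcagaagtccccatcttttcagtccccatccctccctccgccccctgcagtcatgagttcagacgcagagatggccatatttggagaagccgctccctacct
The E-box letters CANNTG, which MyoD and its relatives can bind, matched in 4 of the 6 promoters on either strand, against 72.3% of all promoters. Myh2 and Myh1 had none. The letters TATAAA matched on either strand in 5 of 6, all but Myh13, against 13.6% of all promoters. The only match of Myh2 began 10 bases after its start. The MEF2 motif matched in Myh1, Myh4 and Myh8, against 3.19% of all promoters. Counted from the gene's start, these MEF2 matches began at -211, -182 and -99. Each held a TATAAA match, beginning at -208, -179 and -96. The motifs thus shared letters there, and Myh8 had no other TATAAA match. These matches are letters in the reference and not measured sites.

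The island lists held 24365482 reads at day 0 and 29619426 at day 5, which are reads inside islands and not sequencing depth. Chromosome 11 had 2169 and 2067 islands over 23.8 and 24.6 Mb, a ratio of 1.03, and its median island held 544 and 645 reads. An island is a stretch of enriched windows joined across short gaps, and a stretch without one means only that no row of the list overlapped it. Read densities below are reads per kb of island, unscaled, with exact Poisson 95% intervals that cover counting error only.

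The cluster was less covered in the myotube library. Islands covered 53.0 kb of the 310 kb at day 0 (17.1%) and 20.4 kb at day 5 (6.58%), 2.60 times less. Of the length covered at day 0, 41.0 kb had no island at day 5, while 8.4 kb was covered at day 5 alone and 12 kb at both days. The difference was uneven along the cluster. Near the Myh3 end the covered length was about the same at both days, and the islands near the Myh13 end were listed at day 0 alone.

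At the Myh3 end, the first 47 kb held 3 islands at day 0 and 2 at day 5, with 17.4 and 16.8 kb covered. The day 0 islands were at 66886801 to 66892800 with 466 reads (77.7 per kb, 70.8 to 85.0) and at 66894601 to 66901800 with 432 reads (60.0 per kb, 54.5 to 65.9). A single day 5 island, from 66885001 to 66897000, reached into both and held 1100 reads (91.7 per kb, 86.3 to 97.2). Myh3, the embryonic gene, is the first of the 6 in order, but no island could be tied to a gene without gene positions in mm9. The next pair kept nearly the same place, from 66922801 to 66927000 at day 0 (324 reads, 77.1 per kb) and from 66921601 to 66926400 at day 5 (358 reads, 74.6 per kb). Both of its edges differed by at most 1.2 kb between the days.

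The middle of the cluster was nearly free of islands. From 66927001 to 67124400, a stretch of 197 kb, there was no myoblast island, and by length this was number 93 of 198 such day 0 stretches of at least 100 kb on chromosome 11. Myotubes had 1 there, 3.6 kb wide, from 66976801 to 66980400, with 332 reads (92.2 per kb, 82.6 to 103). It was the only island of the cluster listed at day 5 alone, and the nearest day 0 island was 49.8 kb away.

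The Myh13 end differed most. Its last 65.6 kb held 4 islands at day 0, which covered 35.6 kb, and none at day 5. The parts of the cluster were divided at edges of day 0 islands after these were seen, which fixes where the day 0 cover lies. They were at 67124401 to 67135800 (784 reads, 68.8 per kb), 67159201 to 67171200 (910 reads, 75.8 per kb), 67174201 to 67182600 (549 reads, 65.4 per kb) and 67186201 to 67193400 (506 reads, 70.3 per kb). The last of these crosses the end of the interval by 3.4 kb and counts for the flank too. The nearest day 5 island to any of the 4 was at least 144 kb away, so these were not small shifts of an edge.

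**Figure D1:**
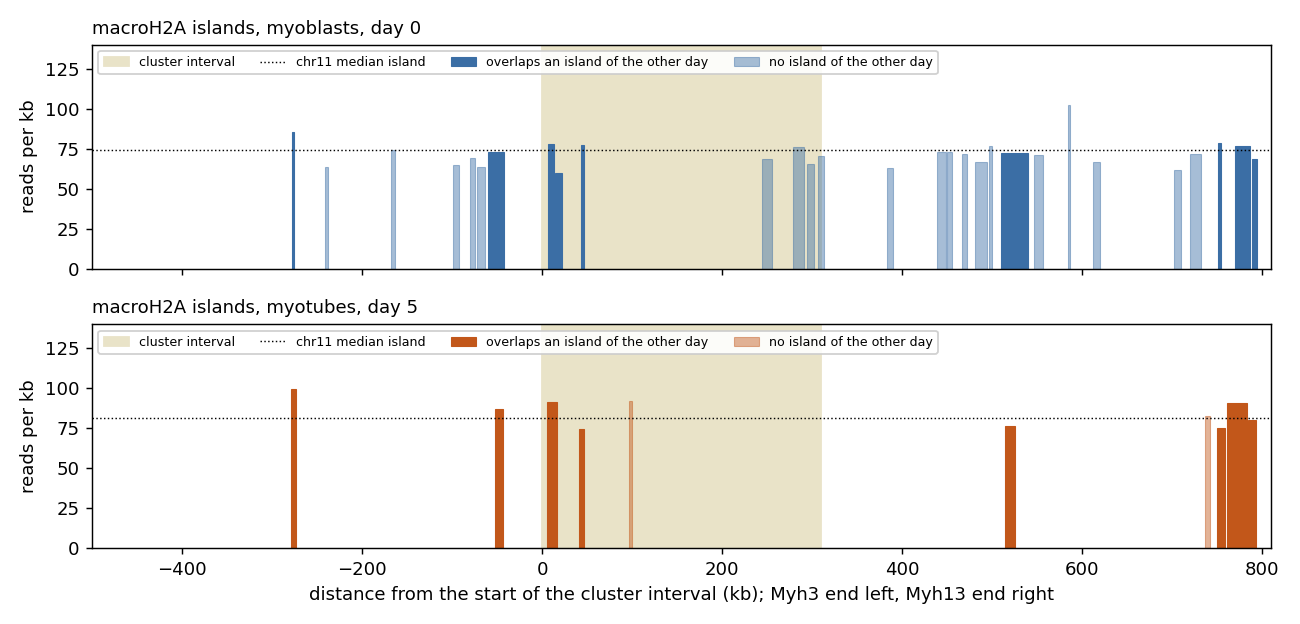
MacroH2A islands of the locus at day 0 (top) and day 5 (bottom), drawn to scale by distance from the start of the cluster interval (kb), with bar height giving reads per kb of the island and the dotted line the chromosome 11 median island. Islands near the Myh3 end (left end of the shaded interval) are present at both days, and the 4 islands near the Myh13 end are present at day 0 alone.

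Taken whole, each flank had the same direction. In the 500 kb before the cluster, on the Myh3 side, 7 islands covered 51.6 kb at day 0 and 2 covered 15.0 kb at day 5, 3.44 times less. The richest day 0 island there, from 66819601 to 66838200, was 18.6 kb wide with 1355 reads, and the day 5 island inside it, from 66828001 to 66837000, was 9.0 kb wide with 783 reads. Day 0 islands with 573 reads at 66807601 to 66816600, 415 reads at 66799801 to 66805800, 390 reads at 66781201 to 66787200 and 356 reads at 66711601 to 66716400 met no day 5 island. The other day 5 island, from 66600601 to 66606600 with 599 reads, enclosed a day 0 island of 3.0 kb with 256 reads. Thus both myotube islands of this flank overlapped a myoblast island, as did 78.0% of all day 5 islands of chromosome 11.

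In the 500 kb after the cluster, on the Myh13 side, 16 islands covered 142 kb at day 0 (28.4%) and 5 covered 56.4 kb at day 5 (11.3%), 2.52 times less. The island with most reads at day 0 ran from 67390201 to 67420200 with 2166 reads (72.2 per kb). The day 5 island inside it, from 67394401 to 67405200, was 10.8 kb wide with 823 reads (76.2 per kb). Next at day 0 were 67650601 to 67666800 with 1241 reads, which day 5 islands covered over 88.9%, and 67599601 to 67612800 with 944, 67360801 to 67374000 with 877 and 67426801 to 67437000 with 726 reads, which no day 5 island met. At day 5 the richest was 67641001 to 67663200 with 2022 reads (91.1 per kb), followed after the 823-read island by 67665001 to 67674000 with 723, 67630201 to 67638600 with 632 and 67616401 to 67622400 with 495 reads. The far end of this flank therefore held 4 of its 5 myotube islands, and there the direction was mostly the opposite. In the 10 kb steps that begin 730 to 800 kb from the cluster's start, day 0 islands covered 28, 0, 30, 0, 94, 82, 46 and 0%. Day 5 islands covered 36, 24, 84, 90, 100, 82, 40 and 0% of the same steps. This end was picked after its values were seen. The myotube island with 495 reads was listed at day 5 alone, 3.6 kb from a day 0 island.

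**Figure D2:**
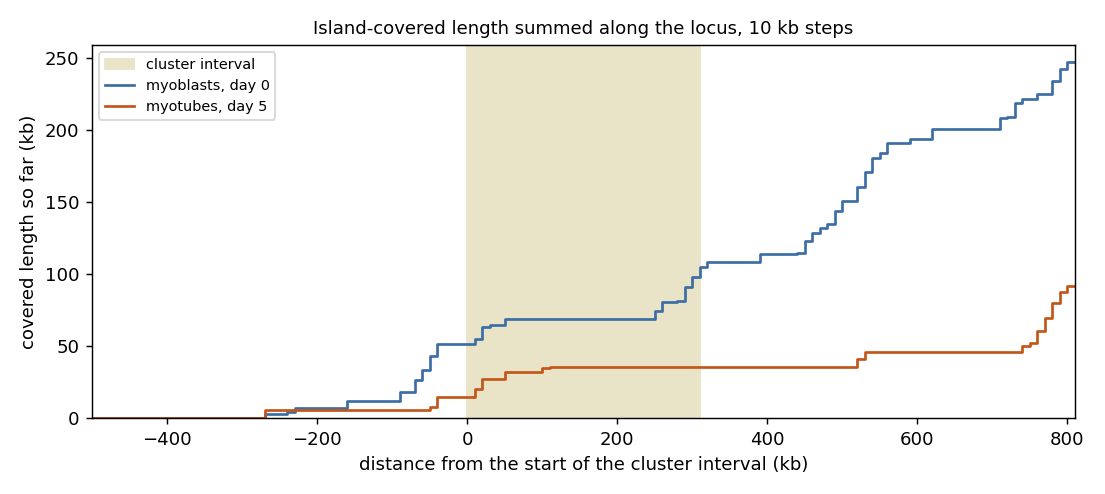
Island-covered length (kb) added up in steps of 10 kb from 500 kb before to 500 kb after the cluster, by distance from the cluster's start (kb). The day 0 line climbs to 247 kb and the day 5 line to 91.8 kb, with the day 5 line flat from within the cluster into the flank on the Myh13 side.

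The absence of day 5 islands at the Myh13 end was part of a longer gap. From 66980401 to 67394400 the day 5 list had no island for 414 kb, of which 210 kb lay in the cluster and 204 kb after it. Day 0 had 11 islands in or reaching into that stretch, which covered 85.8 kb of it (20.7%). On chromosome 11, 199 stretches of at least 100 kb had no day 5 island. This stretch was number 33 of them by length but number 3 by the length that day 0 islands covered, which was 2.4 kb in the median stretch and 146 kb in the highest. The stretch was singled out after its values were seen.

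Set against intervals of the same length, the cluster was ordinary at day 0 and low in its difference. Chromosome 11 was divided into 392 intervals of 310 kb laid from the cluster's start. At day 0, 216 of the 391 others (55.2%) were less covered than the cluster, and the median was 44.4 kb. At day 5, 140 (35.8%) were less covered, and the median was 50.6 kb. The cluster differed by -32.6 kb between the days, and 31 of the others (7.93%) had a lower difference, with a median over the others of 0 kb. The 31 include both intervals next to the cluster, at -36.6 kb on the Myh3 side and -85 kb on the Myh13 side. Of the others, 74 had no island at either day. An interval with less day 0 cover than the size of the cluster's difference could not rank lower, so the 7.93% is in part fixed by day 0 cover. A covered length at least 1.5 times lower at day 5 was found in 14.6% of the 308 intervals with at least 6 kb covered at either day, and one at least 1.5 times higher in 22.4%. The cluster's own 2.60 is past that fold, as 45 intervals in all were, but with a floor of 70 reads per kb on both days it was 1.27 and no longer past it. Among 53 other intervals with a day 0 cover within a factor of 0.75 of the cluster's (41.8 to 67.8 kb), the day 5 cover had a median of 57.8 kb and was below the cluster's in 4.

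With its flanks included, the locus stood further out. Over the whole 1310 kb, 29 islands covered 247 kb at day 0 and 10 covered 91.8 kb at day 5, 2.69 times less, a difference of -155 kb. Of 91 other intervals of that length, 1 had a lower difference. Here and for the flanks too, an interval with less day 0 cover than the size of the difference could not rank lower. Among 85 intervals of 1310 kb with at least 6 kb covered at either day, 4.71% were at least 1.5 times lower at day 5 and 12.9% higher. For the flank on the Myh13 side the difference was -85.6 kb, and 4 of 242 other intervals of 500 kb (1.65%) had a lower one, with 11.8% at least 1.5 times lower and 18.1% at least 1.5 times higher. For the flank on the Myh3 side it was -36.6 kb, and 19 of 241 (7.88%) had a lower one, with 14.4% at least 1.5 times lower and 18.3% higher. With a floor of 70 reads per kb, raised at day 5 to 79.7, islands covered 26.0 kb of the cluster in myoblasts and 15.6 kb in myotubes, 1.67 times less, where 34.1% of intervals were at least 1.5 times lower. Then 30.4% of the other 310 kb intervals had a lower difference. With the floor at 70 on both days the cluster's difference was -5.6 kb, that of the flank on the Myh3 side -11.4 kb and that of the flank on the Myh13 side -45.4 kb. Under the raised floor the 1310 kb held 154 kb and 67.8 kb, and 12.1% of the other intervals had a lower difference. With the floor at 70 on both days the difference over the 1310 kb was -62.4 kb, and 1 of the 91 others had a lower one.

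**Figure D3:**
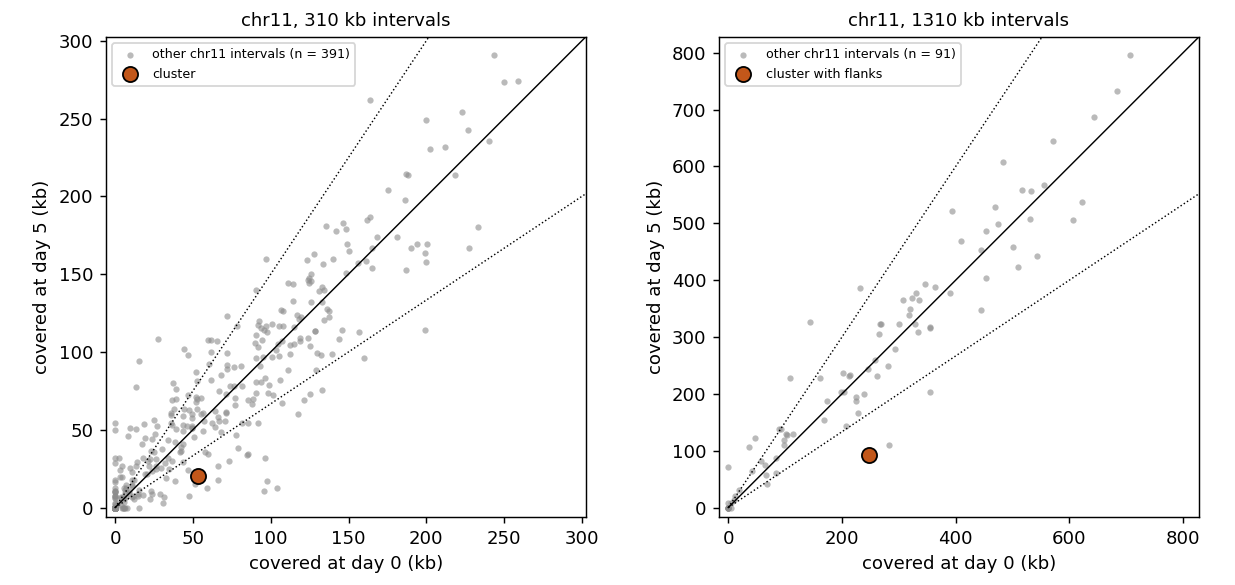
Covered length at day 0 against day 5 (kb) for chromosome 11 intervals of 310 kb (left) and 1310 kb (right), each point 1 interval, with a solid line of equal length and dotted lines at 1.5 times. The cluster (53.0 and 20.4 kb) lies below the lower dotted line among other such intervals, and the cluster with its flanks (247 and 91.8 kb) lies near the lower edge of the points.

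The same islands were compared one by one. Of the 7 day 0 islands of the cluster, 4 met no day 5 island, and of the 29 in the cluster and flanks 20 met none. On all of chromosome 11, 457 of 2169 day 0 islands (21.1%) met none. In the other direction, 1 of 3 day 5 islands of the cluster and 2 of 10 in the cluster and flanks met no day 0 island, against 22.0% on chromosome 11. Neighbouring islands share their surroundings and are not independent. The length covered at both days over that covered at either (Jaccard index) was 0.195 in the cluster, 0.220 and 0.204 in the flanks on the Myh3 and Myh13 sides, and 0.543 on chromosome 11.

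Read density was set beside this result, and its part in it was not tested. At day 0, 21 of the 29 islands of the locus were below the chromosome 11 median of 74.2 reads per kb, and 4 of the 7 in the cluster were. At day 5, 4 of the 10 islands of the locus were below the median of 81.1, and 1 of the 3 in the cluster was. The 4 unshared islands of the cluster had a median of 69.5 reads per kb, close to the 70 of all 457 unshared islands of chromosome 11 and below the 75.7 of the 1712 shared ones. The 3 shared islands of the cluster stood at 60.0, 77.1 and 77.7 reads per kb, so the least dense of the 7 was a shared one. Multiplied by 1.12, the median fold of day 5 over day 0 at chromosome 11 positions covered at both days, the 4 unshared islands would stand at 73.1 to 84.8 reads per kb. Between 17.5% and 61.3% of the listed day 5 islands of chromosome 11 were less dense than that. For the 12 unshared islands of the flank on the Myh13 side, whose median was 71.3 reads per kb, this share ran from 5.18% to 96.5%. The fold of 1.12 comes only from positions kept in both lists. These shares therefore cannot show whether an unshared island would have been listed at day 5. The densest of the 12, from 67464001 to 67466400, had 102 reads per kb (89.7 to 116), and the least dense had 61.4. The densest was 2.4 kb wide with 245 reads, against day 0 medians of 7.8 kb and 544 reads on chromosome 11.

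**Figure D4:**
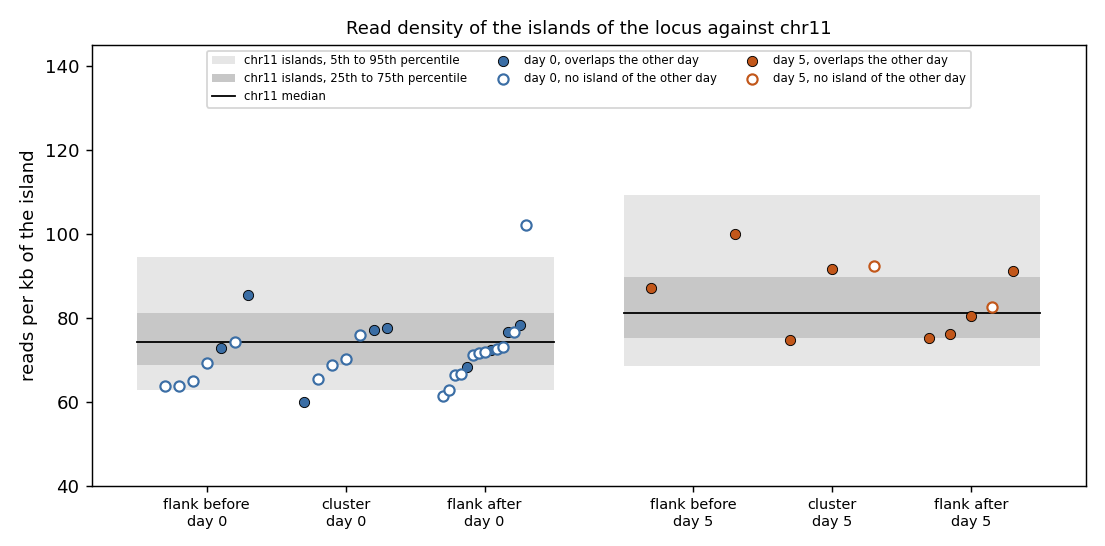
Reads per kb of each island of the cluster and its flanks at day 0 (blue) and day 5 (orange), filled where an island of the other day overlaps and open where none does, over the 5th to 95th and 25th to 75th percentiles of chromosome 11 islands (grey, the line is the median). The island that crosses the end of the cluster is drawn with the cluster, and the open day 0 points of the cluster lie between 65.4 and 75.8 reads per kb.

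Where the cluster was covered at both days, its density ratio between the libraries varied by stretch. Only positions inside islands of both lists enter this ratio, so positions that dropped out of either list are left out by construction. Over 12 kb the mean log2 ratio of density, day 5 over day 0, was 0.23, which is 0.066 above the chromosome 11 median of 0.16. The 0.066 turned to -0.054 when scaled to the reads in islands, and was 0.18 without the 25% of islands with fewest reads and 0.25 with islands within 5 kb merged. The 25th and 75th percentiles of chromosome 11 positions lay at -0.13 and 0.13 around that median, and the 5th and 95th at -0.31 and 0.31. Relative to the median, the stretches lay on both sides of 0, at 0.078 from 66886801 to 66892800, 0.45 from 66894601 to 66897000 and -0.21 from 66922801 to 66926400. The high value belongs to the 60.0 reads per kb island of day 0 that the denser day 5 island overlaps over 2.4 kb. In the flanks the same mean was 0.088 on the Myh3 side and -0.0063 on the Myh13 side.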

How the data were processed

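Per the labels, each day has 1 macroH2A ChIP library of C2C12 cells. Each row of the deposited lists is an island with its position and its raw count of ChIP reads. SICER 1.1, MACS 1.4.2, Bowtie2 2.2.6 and CASAVA 1.4 appear in the submitters' processing notes with no role given, beside the build mm9 (NCBIM37). The lists' names carry the settings W600, G1200 and FDR0.01, which are SICER's window and gap in bp and its false discovery rate. Use of the input as control and treatment of duplicates are not given in the sources used here. The caller joins windows and drops weak ones, so a missing island is not a read count of 0.

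Starts fell on a 600 bp grid and ends were inclusive; coordinates are printed counting from 1. Covered length, overlaps of at least 1 bp and read densities were computed for the cluster, 500 kb flanks and equal intervals of chromosome 11 up to its last island. Each whole island gave its density to its positions. Gene positions in mm9 were not used here. All islands of the cluster and the 5 with most reads per flank and day are named. The members, intervals and lists were chosen with earlier results of these data known. The intervals of like day 0 cover, the long gap, the division of the cluster into parts, the dense narrow island and the 1310 kb intervals were added after values were seen, and the promoter comparison too. Alternatives changed the islands kept, their merging, the floor of density, the intervals and the scaling. The interval code was tested on simulated data of 1000 intervals and found all 200 that were halved. No noise was simulated, so this checks the counting alone and not how calls behave in real lists. Python 3.11.15 was used with SciPy 1.17.1, pandas 2.3.3 and NumPy 2.4.6, and figures were drawn in matplotlib 3.10.9.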

Additional observations from a re-analysis of the deposited data

How the results depend on the processing

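The covered length was lower at day 5 in the cluster and in both flanks under every setting that recomputed it, with differences from -41.0 to -5.6 kb in the cluster, from -41.4 to -11.4 kb in the flank before it and from -88.0 to -45.4 kb in the flank after it. Keeping islands of at least 3 kb, or cutting the lists to equal covered length, left the cluster at -32.6 kb and the flank before it at -36.6 kb. Those settings did not change the cover there and are no check of it. Of 108 recomputed values, 78 stayed within a tolerance, 29 moved and 1 reversed. The tolerance was 1.5 times for island numbers and read counting error for the density ratio. For the rest it came from 95% binomial intervals over 600 bp windows or over intervals, taken as independent. Neighbouring windows of an island are not independent, so it is a yardstick and not a measured spread. With a floor of 70 reads per kb, scaled at day 5, the differences were -10.4, -11.4 and -64.6 kb, the cluster had 4 islands at day 0 of which 1 was overlapped, the percentages of other intervals below the cluster were 50.1 (day 0), 45.5 (day 5) and 30.4 (difference), 12.1 for the cluster with its flanks, and 34.1% of intervals were called lower. Unscaled, the differences were -5.6, -11.4 and -45.4 kb, with 4 islands at day 0, percentages of 50.1 (day 0) and 14.3 (difference), and 9.03% of intervals called lower and 45.8% higher. A floor removes islands by construction, more at the less dense day if unscaled. Without the 25% of islands with fewest reads 1 island was left at day 5 and the relative log2 density ratio was 0.18. Merging islands within 5 kb gave 4 islands at day 0 and a log2 ratio of 0.25. Lists cut to equal covered length called 20.6% of intervals lower. Over all autosomes, 73.1% (day 0) and 55.8% (day 5) of intervals lay below the cluster, 20.8% were called lower and 30.9% higher. Calls at 2 times, stricter by construction, were 8.77% lower and 13.0% higher. The log2 density ratio reversed to -0.054 when scaled to the reads in islands, within counting error of 0. For the other changes the cause was not tested. No paired analysis was possible because each group holds 1 library. Spread between cultures was not measured, and reads outside islands were not analysed here.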
